A study of Mus musculus with 8 samples.

Results

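The type IV collagen chains are 6 genes, Col4a1 to Col4a6, taken by symbol from a count table of 53700 genes. They were picked because Col4a5 was among the genes that rose most in FIH-KO cells, so the genotype differences of the chains are given below as a description, without a test. The counts come from LLC cells, a mouse Lewis lung carcinoma line. The 4 groups were WT cells in normoxia (21% O2), FIH-KO cells in normoxia, WT cells in hypoxia (1% O2) and FIH-KO cells in hypoxia, each kept for 16 hours at its oxygen level and each with 2 libraries. FIH is the asparaginyl hydroxylase that restrains HIF transcription factors, and its mouse gene is Hif1an. The FIH-KO cells had received Cas9 protein with 1 guide against Hif1an and had then been diluted to single cells. The sources used here do not state whether 1 clone or several were sequenced, nor whether the WT cells had received a nontargeting guide, and no further agent or allele is labelled. No label says that the libraries of a group came from separate cultures, so p-values measure the spread between these libraries, which may be technical.

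Type IV collagen is the sheet-forming collagen of basement membranes, the thin matrix layers under epithelia and around vessels. Its chains wind together inside the cell in fixed combinations, Col4a1 with Col4a2 in nearly all tissues, Col4a3 with Col4a4 and Col4a5 in the glomerulus and lung alveolus, and Col4a5 with Col4a6 in some epithelia and smooth muscle, and the secreted protomers are then linked at their ends. The chain genes lie in head-to-head pairs that point away from each other, and inherited loss of COL4A3, COL4A4 or COL4A5 in people causes Alport syndrome.

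In GRCm39 the Col4a1/Col4a2 pair lies on chromosome 8, with Col4a1 (ENSMUSG00000031502.12) on the minus strand at chr8:11248423-11362826 and Col4a2 (ENSMUSG00000031503.14) on the plus strand at chr8:11362471-11499287. The Col4a4/Col4a3 pair lies on chromosome 1, with Col4a4 (ENSMUSG00000067158.10) on the minus strand at chr1:82426144-82564800 and Col4a3 (ENSMUSG00000079465.9) on the plus strand at chr1:82564642-82699780. The Col4a6/Col4a5 pair lies on chromosome X, with Col4a6 (ENSMUSG00000031273.17) on the minus strand at chrX:139948399-140257072 and Col4a5 (ENSMUSG00000031274.17) on the plus strand at chrX:140258354-140472231. The canonical transcripts of Col4a1 and Col4a2 overlap by 318 bases at their starts and those of Col4a4 and Col4a3 by 104 bases, whereas 1281 bases separate the starts of Col4a6 and Col4a5.

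The start regions of the X-linked pair and of the Col4a1/Col4a2 pair are shown because the partners behaved differently in the former and alike in the latter. Each is the RefSeq window from 250 bases before to 50 after the annotated start (table build GRCm38.p6), placed by an exact match on GRCm39. RefSeq windows were found for 5 of the 6 chains, and none for Col4a3. Capitals mark the letters searched for on both strands, namely the core of the hypoxia response element (HRE, ACGTG or GCGTG), the GC box (GGGCGG) and the CCAAT box.
Col4a5 (chrX:140258165-140258464, plus strand): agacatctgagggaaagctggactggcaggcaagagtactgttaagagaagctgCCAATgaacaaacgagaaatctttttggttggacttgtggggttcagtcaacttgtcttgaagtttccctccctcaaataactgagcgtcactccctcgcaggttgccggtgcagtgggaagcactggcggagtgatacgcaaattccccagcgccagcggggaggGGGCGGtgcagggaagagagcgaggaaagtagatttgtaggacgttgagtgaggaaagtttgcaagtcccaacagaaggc
Col4a6 (chrX:140257023-140257322, minus strand): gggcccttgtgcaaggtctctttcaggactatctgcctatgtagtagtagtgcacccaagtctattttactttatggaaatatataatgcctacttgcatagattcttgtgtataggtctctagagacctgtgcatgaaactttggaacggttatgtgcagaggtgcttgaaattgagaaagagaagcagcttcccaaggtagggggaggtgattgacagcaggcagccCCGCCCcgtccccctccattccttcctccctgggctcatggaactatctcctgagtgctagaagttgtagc
Col4a1 (chr8:11362777-11363076, minus strand): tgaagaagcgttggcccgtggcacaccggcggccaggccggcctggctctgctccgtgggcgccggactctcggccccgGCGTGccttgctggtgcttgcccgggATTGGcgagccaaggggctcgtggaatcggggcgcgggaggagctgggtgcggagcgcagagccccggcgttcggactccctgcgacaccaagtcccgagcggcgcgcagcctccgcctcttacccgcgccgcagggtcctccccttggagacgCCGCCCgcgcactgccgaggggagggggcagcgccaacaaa
Col4a2 (chr8:11362555-11362854, plus strand): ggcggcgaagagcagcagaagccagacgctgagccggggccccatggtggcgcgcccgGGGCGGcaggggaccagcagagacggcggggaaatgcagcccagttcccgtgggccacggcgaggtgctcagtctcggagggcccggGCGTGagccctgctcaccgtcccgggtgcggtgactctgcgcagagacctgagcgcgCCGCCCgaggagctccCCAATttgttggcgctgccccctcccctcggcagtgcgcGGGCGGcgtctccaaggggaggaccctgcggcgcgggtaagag

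An HRE core was found once in the windows of Col4a1, Col4a2 and Col4a4 and 0 times in those of Col4a5 and Col4a6. Of 32851 RefSeq windows of the same length, 43.8% held at least 1 such core. In the Col4a1 window the letters GCGTG lay at positions -171 to -167 relative to the start, and in the Col4a2 window at -105 to -101. The 1281 bases between Col4a6 and Col4a5 also held 0 HRE cores. A GC box was present in the windows of Col4a1, Col4a2, Col4a5 and Col4a6 (35.7% of all windows), and a CCAAT box in those of Col4a1, Col4a2 and Col4a5 (37.4% of all windows). The Col4a5 window had a GC content of 52.7%, equal to the median of all windows, against 48.3% for Col4a6, 74.0% for Col4a1 and 73.7% for Col4a2. The last pair of windows share 78 bases, and RefSeq places the Col4a2 start 296 bases downstream of the GENCODE start and the Col4a5 start 61 bases downstream. A match of letters is a description of the sequence, and HIF binding at these windows was not analysed here.

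The libraries held 14519731 to 18177016 counted reads each. Hif1an kept 584 to 784 reads in the FIH-KO libraries against 1231 to 1609 in the WT libraries, with no overlap. The labelled cell type was checked against marker genes. Among 6 epithelial markers Epcam and Cldn4 had 0 reads in every library and Cdh1 at most 0.068 CPM (counts scaled to a common library size with TMM factors), while Krt8 was at 104 to 332 CPM and Krt18 at 110 to 205 over all libraries. Nkx2-1 and Sftpc, which define lung epithelium, had 0 reads in every library, and Vim was at 3189 to 5442 CPM. Thus keratins were present, but the other defining epithelial markers were absent or close to 0. For the cell types in which type IV collagen is best known, the summed level of 6 endothelial markers was 0.238 to 2.41 CPM, with Emcn and Cldn5 at 0. Of 5 podocyte markers, Nphs1 and Wt1 were at 0, whereas Podxl was at 16.6 to 88.9 CPM and Synpo at 25.3 to 34.8.

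Col4a1 and Col4a2 supplied nearly all chain mRNA, Col4a5 was close to absent in WT cells and clearly present in FIH-KO cells, and Col4a3, Col4a4 and Col4a6 were at or close to 0 throughout. Levels between chains are compared per length, as RPKM, the CPM value divided by the merged exon length in kilobases. All 6 chains together took 0.131% to 0.247% of the reads of a library, and their summed level was 178 to 328 RPKM. In RNA from a whole culture, fewer cells that express a gene and less RNA per cell cannot be told apart. Of the 6 chains, 3 passed the filter on low counts (Col4a1, Col4a2 and Col4a5), and Col4a5 passed only through the FIH-KO groups, where it is high.

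**Figure D1:**
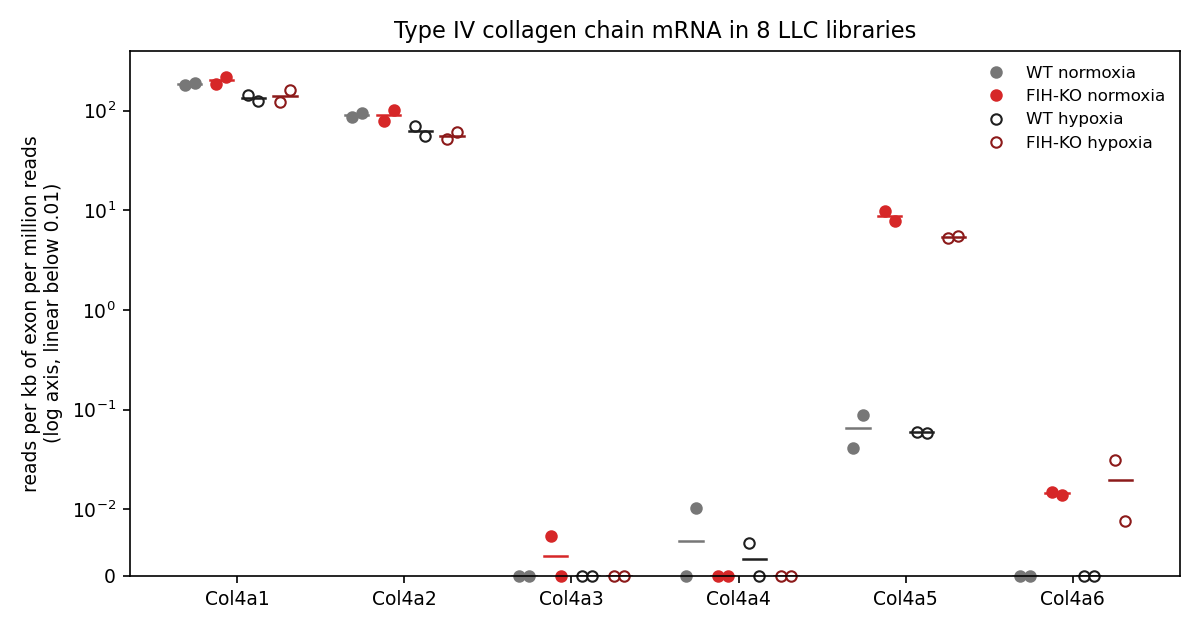
Level of each type IV collagen chain in RPKM on a log axis that is linear below 0.01. Each point is 1 library, each bar the mean of a group of 2, filled symbols are 21% O2 and open symbols 1% O2. Col4a1 and Col4a2 lie between 51.9 and 219 RPKM in every library, while Col4a5 lies between 0.0413 and 0.0888 in WT and between 5.27 and 9.81 in FIH-KO libraries.

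Col4a5, a chain of the glomerular, alveolar and epithelial protomers, had 6 and 14 reads in the WT normoxia libraries and 10 and 8 in the WT hypoxia libraries. It had 1539 and 1294 reads in the FIH-KO normoxia libraries and 788 and 802 in the FIH-KO hypoxia libraries. Every FIH-KO library was thus far above every WT library, and the FIH-KO libraries in normoxia were above those in hypoxia. The mean level was 0.0650 ± 0.0336 RPKM in WT and 8.78 ± 1.45 in FIH-KO cells in normoxia (SD, n = 2 each). In hypoxia it was 0.0592 ± 0.00109 in WT and 5.43 ± 0.226 in FIH-KO cells (SD, n = 2 each). The difference chosen by the rule amounted to a log2 fold change of 7.04 (standard error 0.25) in normoxia, or 132-fold, the 10th highest of 13933 tested genes. In hypoxia it was 6.50 (standard error 0.26), or 90.3-fold, the 11th highest. Without WT normoxia replicate 2 the value in normoxia was 7.68 and without WT normoxia replicate 1 it was 6.59, in a group with few reads. The summed level of the epithelial markers also differed with genotype, at 326 to 352 CPM in WT and 436 to 538 in FIH-KO normoxia libraries and at 226 to 283 and 334 to 447 in hypoxia. Krt8 was at 151 and 150 CPM in WT and 332 and 277 in FIH-KO normoxia, and at 140 and 104 in WT and 272 and 216 in FIH-KO hypoxia, and Krt18 overlapped between the genotypes. The summed level of the podocyte markers was 95.8 to 117 CPM in WT and 51.2 to 66.1 in FIH-KO libraries, a difference found in Podxl (62.4 to 88.9 and 16.6 to 35.3 CPM) and not in Synpo (25.3 to 34.8 and 30.8 to 34.6). The part of these markers in the Col4a5 difference was not tested.

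Col4a6, which shares the X-linked start region with Col4a5 and pairs with it in protein, did not reach the filter. It had 0 reads in all 4 WT libraries, 2 and 2 in FIH-KO normoxia and 4 and 1 in FIH-KO hypoxia. Its reads therefore lay only in FIH-KO libraries, but 0 reads in a WT library allow up to 3, and all but 1 of the FIH-KO values are within that limit. On the RPKM scale the means in FIH-KO cells were 0.0145 in normoxia and 0.0197 in hypoxia. Over both libraries of a WT group together, the limit of 3 reads corresponds to 0.0116 RPKM in normoxia and in hypoxia. The FIH-KO means lay just above that value, on a few reads, and the Col4a6 genotype difference is given without a test. Col4a6, on the opposite strand, remained far below Col4a5 in every FIH-KO library.

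Col4a3 and Col4a4, the chains that join Col4a5 in glomerular protomers, were not detectable above the limit of 3 reads in any library. Col4a3 had 1 read in FIH-KO normoxia replicate 1 and 0 in the other 7 libraries. Col4a4 had 2 reads in WT normoxia replicate 2, 1 in WT hypoxia replicate 1 and 0 elsewhere. The levels of Col4a3, Col4a4 and, in WT cells, Col4a6 were within this limit of each other, so their order was not determined.

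Col4a1, the most abundant chain, was at 180 and 191 RPKM in WT normoxia, 185 and 219 in FIH-KO normoxia, 144 and 124 in WT hypoxia, and 121 and 160 in FIH-KO hypoxia. The genotypes overlapped at each oxygen level, and the hypoxia libraries of both genotypes were below the normoxia libraries. The genotype difference was 0.12 (standard error 0.15) in normoxia and 0.07 (standard error 0.15) in hypoxia on the log2 scale. The 95% interval was -0.21 to 0.45 in normoxia, and at 1% O2 it was -0.26 to 0.40.

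Col4a2, its partner in the ubiquitous protomer, was at 86.4 and 96.0 RPKM in WT normoxia, 78.4 and 101 in FIH-KO normoxia, 70.2 and 55.9 in WT hypoxia, and 51.9 and 60.7 in FIH-KO hypoxia. The WT and FIH-KO ranges overlapped at both oxygen levels. The log2 difference between genotypes was -0.02 (standard error 0.15, 95% interval -0.36 to 0.31) in normoxia and -0.16 (standard error 0.15, 95% interval -0.50 to 0.17) in hypoxia. Col4a1 and Col4a2 have 311 exon bases in common on opposite strands, out of merged lengths of 7464 and 7179 bases. The library kit was stranded, but the strand setting of the counting is not given in the sources used here, so reads from those bases may be shared.

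In every library the order was Col4a1, then Col4a2, then Col4a5. Col4a1 exceeded Col4a2 per length by 2.09 and 1.99 times in WT normoxia, 2.35 and 2.18 in FIH-KO normoxia, 2.05 and 2.23 in WT hypoxia, and 2.34 and 2.64 in FIH-KO hypoxia. At each oxygen level both FIH-KO libraries had a higher ratio than both WT libraries, by a margin that was small beside the ratio itself, and this genotype contrast was not tested. Col4a5 made up 3.60% and 2.36% of the summed chain level in FIH-KO normoxia and 2.95% and 2.46% in FIH-KO hypoxia, against 0.0155% to 0.0324% in the WT libraries. Of the chain reads themselves, Col4a5 held 4.51% in FIH-KO normoxia replicate 1 (exact 95% binomial interval 4.29% to 4.73%) and 0.0196% in WT normoxia replicate 1 (0.00720% to 0.0427%), intervals that cover counting error only. Even where Col4a5 was highest, Col4a1 and Col4a2 therefore accounted for nearly all of the chain mRNA.

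**Figure D2:**
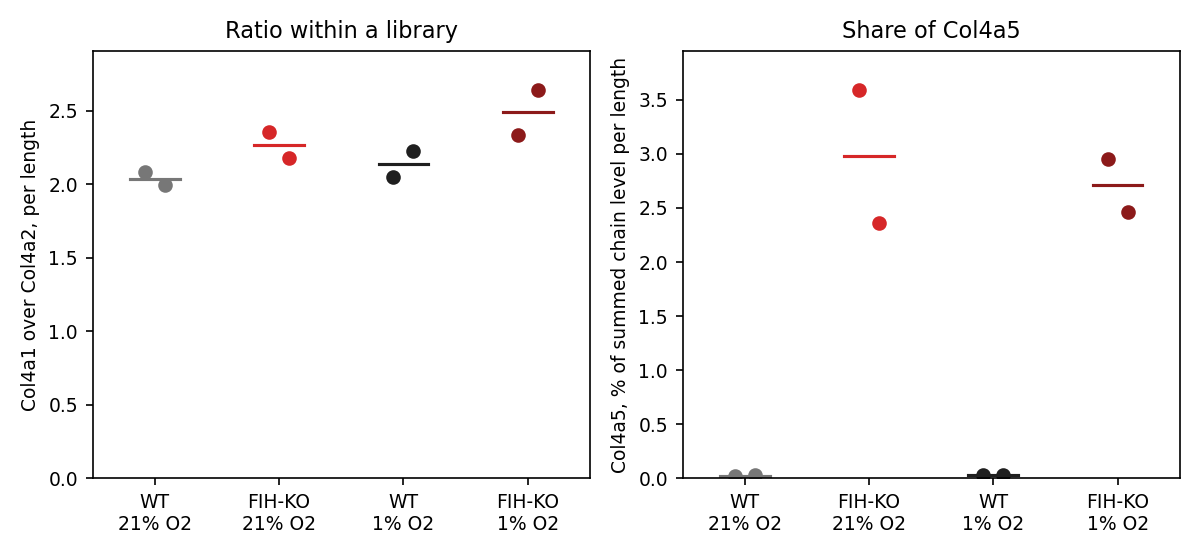
Left, the level of Col4a1 over that of Col4a2 per length. Right, Col4a5 as a percentage of the summed RPKM of all 6 chains. Each point is 1 library, bars are means of 2 libraries and both axes start at 0. The ratio lies between 1.99 and 2.64 in all libraries, and the Col4a5 share is 2.36% or more only in FIH-KO libraries.

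The oxygen comparison was tested for Col4a1 and Col4a2, which fell in hypoxia in both genotypes. Col4a5 was picked for, and passed the filter through, its high values in the FIH-KO libraries, so its oxygen values are a description with no test. In WT cells both Col4a1 and Col4a2 were called, where 32.4% of all tested genes were called in either direction and 15.5% as lower (16.9% as higher). Col4a1 was 1.38-fold lower in hypoxia than in normoxia in WT cells (log2 fold change -0.47, standard error 0.15, adjusted p = 0.034, edgeR quasi-likelihood test), and Col4a2 was 1.45-fold lower (-0.53, standard error 0.15, adjusted p = 0.020). Col4a5 had a log2 fold change of -0.15 in WT cells (95% interval -1.14 to 0.84), and with 6 to 14 reads a library a change of either sign within that interval was not detectable.

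In FIH-KO cells Col4a1 and Col4a2 were again called lower, where 16.8% of all tested genes were called, 8.84% as higher and 8% as lower. Col4a1 was 1.43-fold lower (log2 fold change -0.52, standard error 0.15, adjusted p = 0.036, edgeR) and Col4a2 was 1.59-fold lower (-0.67, standard error 0.15, adjusted p = 0.012). Col4a5 was 1.62-fold lower in the same libraries (-0.69, standard error 0.16, 95% interval -1.04 to -0.35). The median log2 change over all tested genes was -0.0011 in WT and -0.027 in FIH-KO cells. In each of these pairs of groups, Col4a5 in WT cells apart, both hypoxia libraries lay below both normoxia libraries of the same genotype. The share of all tested genes that separate in this way was not counted, so no weight is put on the separation. The 9 fibroblast markers were Pdgfra, Pdgfrb, Dcn, Lum, Col1a1, Col1a2, Col3a1, Thy1 and Vim, with nearly all of their sum from Vim and Col3a1. That summed level was also lower in hypoxia, at 3928 to 4218 CPM against 4732 to 5732 in WT and at 6425 to 6772 against 7049 to 7508 in FIH-KO cells. Vim overlapped between the oxygen levels in both genotypes, whereas Col3a1 was at 1325 and 1722 CPM in WT normoxia against 588 and 714 in WT hypoxia, and at 2171 and 1806 in FIH-KO normoxia against 1320 and 1707 in FIH-KO hypoxia. The part of these markers in the chain values was not tested.

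These calls depended on single libraries, although the direction of the called values did not. In WT cells Col4a1 was no longer called without any 1 of the 4 WT libraries (adjusted p = 0.054 to 0.21, edgeR), and Col4a2 was not called without WT normoxia replicate 2 (adjusted p = 0.12) or WT hypoxia replicate 2 (adjusted p = 0.17). Without FIH-KO hypoxia replicate 1 neither was called in FIH-KO cells, with Col4a1 at -0.31 (adjusted p = 0.20) and Col4a2 at -0.54 (adjusted p = 0.070). The Col4a5 value in FIH-KO cells was -0.50 without FIH-KO normoxia replicate 1 and -0.63 without FIH-KO hypoxia replicate 1. Col4a2 was also not called there without FIH-KO normoxia replicate 2 (-0.46, adjusted p = 0.11). Col4a1 in FIH-KO cells was called in the full data and without FIH-KO hypoxia replicate 2, but not without any 1 of the other 7 libraries (adjusted p = 0.051 to 0.22) nor with only the 4 FIH-KO libraries in the fit (adjusted p = 0.13).

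The size of the hypoxia response was compared between genotypes by its own test. The difference, FIH-KO minus WT, was -0.05 for Col4a1 (95% interval -0.52 to 0.42, adjusted p = 0.98, edgeR) and -0.14 for Col4a2 (-0.61 to 0.33, adjusted p = 0.93), and neither passed. For Col4a5 it was -0.54 (-1.61 to 0.52), given with no test because it is built from the genotype values that chose the gene. Over all 13933 tested genes edgeR called 0 in this comparison and 925 had an unadjusted p under 0.05, while DESeq2 called 35. The intervals leave room for a difference of either sign, so the genotypes were not shown to respond alike.

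**Figure D3:**
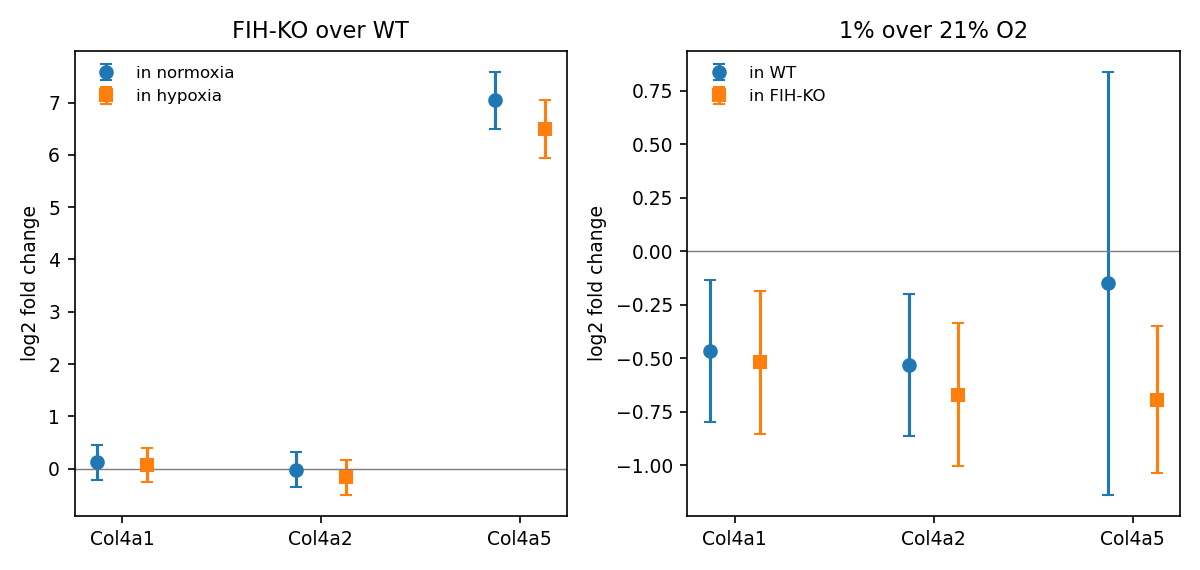
Log2 fold change of the 3 tested chains between genotypes (left, a description) and between oxygen levels (right), with 95% intervals from the edgeR fit of 8 libraries. The axes differ in scale. Col4a5 is at 7.04 and 6.50 on the left, and its values on the right are a description as well. The Col4a1 and Col4a2 intervals on the right lie below 0.

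Genes next to the 3 pairs were examined to see whether Col4a5 rose with its surroundings. Of the 10 tested genes nearest to the Col4a6/Col4a5 pair, 5 on each side, 2 were called higher in FIH-KO cells at each oxygen level and 0 lower, where 28.2% of tested genes were called in normoxia (15.2% higher) and 28.0% in hypoxia (14.1% higher). Nxt2, a gene for an mRNA export cofactor whose start is 751 kb from the Col4a5 start, had 3 and 3 reads in WT normoxia, 99 and 128 in FIH-KO normoxia, 8 and 1 in WT hypoxia, and 120 and 143 in FIH-KO hypoxia. Every FIH-KO library was above every WT library, with a log2 fold change of 5.09 in normoxia and 4.90 in hypoxia. Nxt2 passed the filter on low counts only through the FIH-KO groups, where it is high. Its p-values are therefore not given, and its call, 1 of the 2 above, is a description. Tsc22d3, encoding a glucocorticoid-induced leucine zipper protein, rose by 1.38 in normoxia (adjusted p = 0.00025, edgeR) and by 0.55 in hypoxia (adjusted p = 0.027). The nearest tested gene on the Col4a6 side, Atg4a, an autophagy protease gene, had 0.69 (adjusted p = 0.053) and 0.49 (adjusted p = 0.17). The nearest on the Col4a5 side was the gene model Gm6368, at -0.36 and -0.16 (adjusted p = 0.31 and 0.69). Of 13 protein-coding genes within 1 Mb of the pair, 6 were tested and 6 had at most 3 reads in every library.

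Around Col4a4/Col4a3, whose members were at the detection limit, 4 of the 10 nearest tested genes were called higher and 0 lower at each oxygen level. Of all tested genes, 15.2% were called higher and 13.0% lower in normoxia, and 14.1% and 13.9% in hypoxia. Pid1, a gene first linked to insulin signalling in fat cells, had 9 and 10 reads in WT normoxia, 185 and 175 in FIH-KO normoxia, 11 and 4 in WT hypoxia and 121 and 134 in FIH-KO hypoxia (log2 fold change 4.13 and 4.13). Like Nxt2, it passed the filter on low counts through the FIH-KO groups, where it is high. Its p-values are therefore not given, and its call, 1 of the 4 above, is a description. Around Col4a1/Col4a2, 1 of the 10 was called higher and 2 lower at each oxygen level. The higher gene was Irs2, an insulin receptor substrate, at 0.82 (adjusted p = 0.00075, edgeR) and 0.61 (adjusted p = 0.0045), and the lower genes were Arglu1 and Ankrd10, between -0.47 and -0.40. On chromosome X as a whole, 20.6% of 471 tested genes were higher in the knockout at 21% O2 and 24.4% at 1% O2. Over all tested genes these shares were 15.2% and 14.1%, on chromosome 1 they were 12.8% and 11.3%, and on chromosome 8 11.4% and 10.6%.

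**Figure D4:**
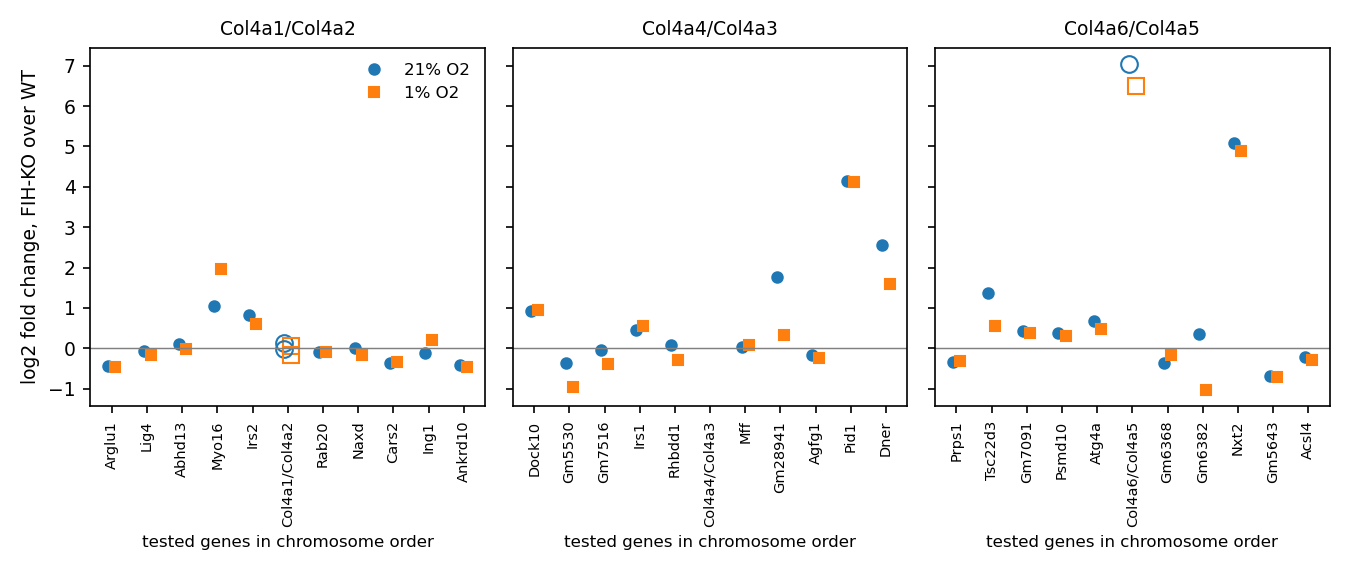
Log2 fold change between FIH-KO and WT cells for the 5 tested genes on each side of each pair, in chromosome order and not to distance. Filled symbols are neighbours, large open symbols the tested chains, circles 21% O2 and squares 1% O2. Col4a5 and Nxt2 stand out in the X-linked panel and Pid1 and Dner in the middle panel, where no chain was tested.

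The genes whose levels followed Col4a5 most closely were sought among 10576 tested genes whose mean was 50 counts or more, by Pearson's r of log2 CPM over the 8 libraries. They were Snn (r = 0.997), Tapbp (0.995), Lynx1 (0.994), Fam234a (0.994) and Elk1 (0.994). Lynx1, a modulator of nicotinic acetylcholine receptors, had 7 to 13 reads in the WT and 204 to 242 in the FIH-KO libraries, and Tapbp, the tapasin of the MHC class I loading complex, had 569 to 696 and 1431 to 1701. All 5 split by genotype as Col4a5 does, and the 8 points share the 4 groups. Only Elk1, encoding an ETS transcription factor, is also on chromosome X. Across the same libraries Col4a1 and Col4a2 had r = 0.934, and Col4a5 and Col4a1 had r = 0.206.

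The genes that make, bind and degrade type IV collagen were taken from 4 lists of 114 genes, of which 86 were tested. The lists were chosen with earlier results of these data known, so their shares beside all tested genes are a description. In FIH-KO cells 32 were called higher and 8 lower in normoxia (46.5% called, against 28.2% of all tested genes), with a median log2 fold change of 0.24 against -0.0025 over all tested genes. In hypoxia 30 were called higher and 6 lower (41.9%, against 28.0%), with a median of 0.31 against -0.032. The normoxia counts include Mmp12 and Timp3 and the hypoxia counts Itga2, which passed the filter on low counts through groups in which they are high. The normoxia count was 17 to 44 and the hypoxia count 27 to 40 with each library left out, and the normoxia count was 17 without WT normoxia replicate 1 and 24 without WT normoxia replicate 2, where 11.8% and 14.2% of all tested genes were called. Across the same groups the summed level of 9 fibroblast markers was 3928 to 5732 CPM in WT and 6425 to 7508 in FIH-KO libraries, with Vim and Col3a1 supplying nearly all of it, 3 of the 9 above 1 CPM in every library and Thy1 at 0. The third of these, Pdgfra, was lower in FIH-KO libraries, at 25.1 to 27.4 CPM in WT against 17.0 to 17.4 in FIH-KO normoxia and 14.8 to 22.7 against 6.93 to 13.5 in hypoxia. The part of these markers and of the epithelial ones in these counts, and in the Col4a5 difference, was not tested.

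Among 18 tested basement membrane partners, 5 were called higher and 2 lower in FIH-KO cells in normoxia and 5 and 1 in hypoxia, with medians of 0.08 and 0.02. Called genes were 38.9% and 33.3% of this list, against 28.2% and 28.0% of all tested genes. The fibulin genes Fbln5 and Fbln2, whose products link elastic fibres and basement membranes, rose most. Fbln2 had 32 and 27 reads in WT normoxia, 231 and 433 in FIH-KO normoxia, 34 and 15 in WT hypoxia and 175 and 266 in FIH-KO hypoxia, a log2 rise of 3.38 in normoxia (adjusted p = 6.4e-05) and of 3.23 in hypoxia (adjusted p = 0.00012, edgeR). Fbln5 rose by 4.49 (adjusted p = 9.0e-04) and 2.03 (adjusted p = 0.026). Nid1, encoding the nidogen that bridges laminin and type IV collagen networks, rose by 0.43 (adjusted p = 0.022) in normoxia and 0.93 (adjusted p = 3.0e-04) in hypoxia. The laminin chain gene Lamb2 rose in normoxia by 0.43 (adjusted p = 0.046) and had 0.13 in hypoxia (adjusted p = 0.55), and Lamb1 had -0.18 in normoxia (adjusted p = 0.28) and fell by 0.33 in hypoxia (adjusted p = 0.047). Lama5, the main α chain gene of many epithelial laminins, had -0.06 and -0.20, and Hspg2, the perlecan gene, had 0.10 and 0.12, with adjusted p of 0.29 to 0.78. Col18a1, which encodes a basement membrane collagen and the source of endostatin, fell by 0.83 in normoxia (adjusted p = 0.023) and had -0.30 in hypoxia (adjusted p = 0.39). Smoc1, a calcium-binding matricellular gene, fell by 0.62 in normoxia (adjusted p = 0.0077).

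Of 32 tested genes of chain biosynthesis and cross-linking, 8 were called higher and 4 lower in normoxia and 11 and 4 in hypoxia, with medians of 0.18 and 0.17. Called genes were 37.5% and 46.9% of this list, against 28.2% and 28.0% of all tested genes. Loxl3, a lysyl oxidase-like cross-linking enzyme gene, had 979 and 1248 reads in WT normoxia and 4488 and 3895 in FIH-KO normoxia, and rose by 1.83 (adjusted p = 5.9e-05) and by 1.69 in hypoxia (adjusted p = 0.00014, edgeR). Of the same family, Loxl4 rose by 0.63 in normoxia, whereas Loxl2, with few reads, fell. Mean Loxl2 was 4.27 CPM in WT and 0.772 in FIH-KO normoxia, and 5.45 and 0.657 in hypoxia. Loxl2 and Loxl4 were named after their values were seen. The prolyl 4-hydroxylase subunit gene P4ha3 rose by 1.36 (adjusted p = 0.0048) and 1.96 (adjusted p = 0.0022). P3h2, encoding the prolyl 3-hydroxylase that modifies type IV collagen, had 126 and 160 reads in WT normoxia, 51 and 57 in FIH-KO normoxia, 144 and 141 in WT hypoxia and 53 and 51 in FIH-KO hypoxia, a fall of 1.50 (adjusted p = 0.00067) and 1.41 (adjusted p = 0.0011). Plod2, a lysyl hydroxylase gene, fell by 0.83 in normoxia (adjusted p = 0.00048) and had 0.11 in hypoxia (adjusted p = 0.53). Cert1, a ceramide transfer gene listed here because it also encodes a kinase reported to bind the type IV collagen end domain, fell by 0.67 (adjusted p = 0.0049) and 0.43 (adjusted p = 0.043). Serpinh1, the collagen chaperone gene, had 0.33 and 0.20, Plod3, encoding the lysyl hydroxylase and glucosyltransferase of type IV collagen, had 0.20 and 0.33, and Pxdn, the peroxidase gene of the sulfilimine cross-link, had -0.30 and -0.05, with adjusted p of 0.075 to 0.80.

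Of 17 tested receptor genes, 8 were called higher and 0 lower in normoxia and 7 and 1 in hypoxia, with medians of 0.47 and 0.39. Called genes were 47.1% of this list at each oxygen level, against 28.2% and 28.0% of all tested genes. Ddr1, a receptor tyrosine kinase that type IV collagen activates, had 562 and 680 reads in WT normoxia, 1741 and 1583 in FIH-KO normoxia, 1059 and 914 in WT hypoxia and 2204 and 1686 in FIH-KO hypoxia. It was higher in every FIH-KO library than in the WT libraries at the same oxygen level, by 1.33 (adjusted p = 4.7e-05) and 1.02 (adjusted p = 0.00026, edgeR). The integrin gene Itgb5 rose by 1.61 (adjusted p = 4.5e-06) and 1.22 (adjusted p = 2.8e-05), and Itgb3 rose by 1.55 in normoxia (adjusted p = 0.0031) and had 0.33 in hypoxia (adjusted p = 0.48). Of the collagen-binding integrins, Itga1 had -0.17 and -0.01 (adjusted p = 0.59 and 0.98). Itga2 had 2 and 1 reads in WT normoxia and 0 and 0 in FIH-KO normoxia, then 50 and 58 in WT hypoxia against 1 and 2 in FIH-KO hypoxia, so its reads lay almost wholly in WT hypoxia. Itga2 is the 1 receptor gene counted as lower in hypoxia. It passed the filter on low counts only through WT hypoxia, where it is high, so its p-value is not given.

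Of 19 tested turnover genes, 11 were called higher and 2 lower in normoxia and 7 and 0 in hypoxia, with medians of 0.69 and 0.52. Called genes were 68.4% and 36.8% of the list, against 28.2% and 28.0% of all tested genes. The normoxia calls include Mmp12 (mean 0 CPM in WT, 0.483 in FIH-KO) as higher and Timp3 (0.904 and 0.205) as lower. Both passed the filter on low counts through groups in which they are high, so these calls are a description. Mmp19, a matrix metalloproteinase gene, had 113 and 107 reads in WT normoxia, 869 and 791 in FIH-KO normoxia, 136 and 121 in WT hypoxia and 549 and 489 in FIH-KO hypoxia, a rise of 2.82 (adjusted p = 6.3e-07) and 2.06 (adjusted p = 7.1e-06, edgeR). Mmp14, encoding a membrane-bound collagenase that activates other proteases, rose by 0.89 (adjusted p = 0.00011) and 1.03 (adjusted p = 4.4e-05). Mmp11 rose by 1.40 (adjusted p = 0.00032) and 1.51 (adjusted p = 2.0e-04), and Mmp13 rose by 1.72 in normoxia (adjusted p = 0.0092) and had 0.87 in hypoxia (adjusted p = 0.076). Ctsl, a lysosomal protease gene, fell by 0.58 in normoxia (adjusted p = 0.0063) and had -0.12 in hypoxia (adjusted p = 0.53). The gelatinase genes Mmp2 and Mmp9, whose products are named for cutting type IV collagen, were not tested, with 0 to 4 and 1 to 10 reads a library.

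**Figure D5:**
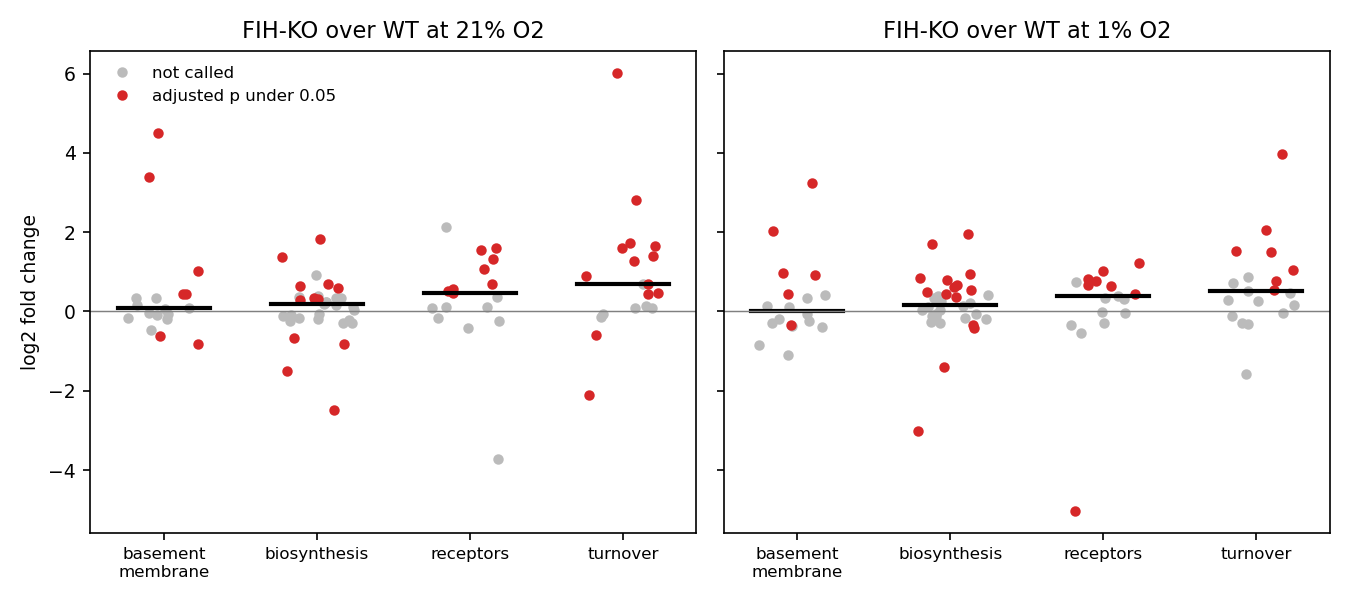
Log2 fold change between FIH-KO and WT cells for the 86 tested genes of the 4 lists, at 21% O2 on the left and 1% O2 on the right. Each point is a gene, red points had an adjusted p under 0.05 and black bars are list medians. The medians run from 0.08 to 0.69 on the left and from 0.02 to 0.52 on the right, and red points lie on both sides of 0.

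Hypoxia called 22 of the 86 pathway genes higher and 18 lower in WT cells (46.5%, against 32.4% of all tested genes) and 17 higher and 15 lower in FIH-KO cells (37.2%, against 16.8%). Among basement membrane partners, where Col4a1 and Col4a2 have their network, 3 were higher and 6 lower in WT cells and 1 and 5 in FIH-KO cells, with medians of -0.28 and -0.25. Lama5 fell by 0.45 in WT (adjusted p = 0.022) and 0.59 in FIH-KO cells (adjusted p = 0.011, edgeR). Nid1 fell by 0.46 in WT cells (adjusted p = 0.015) and had 0.04 in FIH-KO cells (adjusted p = 0.87), and the difference between these responses did not pass (0.50, adjusted p = 0.60). The enzyme genes P4ha1 and Plod2 moved the other way from the chains, whereas P4ha3 and Loxl3 fell. P4ha1, a subunit of collagen prolyl 4-hydroxylase, had 2089 and 2140 reads in WT normoxia and 5755 and 4870 in WT hypoxia, and 2642 and 2721 in FIH-KO normoxia and 8695 and 7572 in FIH-KO hypoxia, a rise of 1.33 (adjusted p = 9.1e-06) and 1.74 (adjusted p = 1.6e-06). Plod2 rose by 1.52 in WT (adjusted p = 8.9e-06) and 2.46 in FIH-KO cells (adjusted p = 5.2e-07). P4ha3 fell by 2.24 (adjusted p = 0.00079) and 1.64 (adjusted p = 0.0035), and Loxl3 fell by 1.53 (adjusted p = 0.00022) in WT and fell by 1.66 in FIH-KO cells (adjusted p = 0.00021). The WT count was 24 without WT normoxia replicate 2, where 14.5% of all tested genes were called, and the FIH-KO count was 20 without FIH-KO normoxia replicate 2 (10.2% of all) or FIH-KO hypoxia replicate 1 (9.87% of all). For the difference of the hypoxia response, edgeR called 0 of the 86 genes and 11 had an unadjusted p under 0.05 (12.8%, against 6.64% of all tested genes). DESeq2 called 2 of the 86 and 0.251% of all tested genes. The 2 were Plod2 (0.95, adjusted p = 0.0014) and the protease gene Adamts1 (-1.31, adjusted p = 0.011), the latter named after its values were seen.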

How the data were processed

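From stranded mRNA libraries the authors mapped paired-end reads with STAR (GRCm39) and counted with HTSeq, and the deposited values are raw counts per gene. The submitters' processing notes also name GRCm38. The annotation release and strand setting are not given in the sources used here. All 8 libraries and columns were used, with groups from the labels. In R 4.3.3, edgeR 4.0.16 (filterByExpr by group, TMM, 1 quasi-likelihood fit with 4 group means, Benjamini-Hochberg over 13933 genes, threshold 0.05) gave fold changes and tests. Of the gene identifiers, 52610 (97.97%) were found in GENCODE release M39, which gave positions and exon lengths. RefSeq windows were searched in Python 3.11.15. The fit was tested on simulated counts. Alternatives were DESeq2 1.42.0, other scalings and filters, smaller fits, a replicate block and left-out libraries.

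The members and gene lists were chosen with earlier results of these data known. Named pathway genes were a fixed set plus, in each list and genotype comparison, the 2 called higher and the 2 called lower with the largest change among those averaging 50 counts or more. Neighbours were the 5 tested genes on each side of a pair.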

Additional observations from a re-analysis of the deposited data

How the results depend on the processing

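The chains had 116 values under other scalings, filters, tests and fits. These were log2 fold changes and numbers of chains called, and a small shift of a number counted as the same. By that rule 115 were the same, and every fold change kept its direction. The exception was Col4a1 in FIH-KO cells in hypoxia with only the 4 libraries of the comparison (-0.49, adjusted p = 0.13, edgeR). With those libraries, or with at least 10 counts in every library, 2 chains were called in FIH-KO cells in place of 3. The 3 include Col4a5, whose values are a description. When single libraries were dropped, the Col4a5 genotype difference was 6.59 to 7.68 in normoxia and 6.46 to 6.58 in hypoxia. The Col4a1 response to hypoxia was then -0.61 to -0.37 in WT and -0.74 to -0.31 in FIH-KO cells. For Col4a2 it was -0.74 to -0.38 in WT and -0.82 to -0.46 in FIH-KO cells. Without WT normoxia replicate 2 the Col4a5 response in WT cells turned from -0.15 to 0.48, and over the left-out libraries it was -0.62 to 0.48. The uncalled differences of response also changed sign, from -0.27 to 0.20 for Col4a1 and from -0.29 to 0.12 for Col4a2. The pathway counts with a library left out were 17 to 44 (genotype, normoxia), 27 to 40 (genotype, hypoxia), 24 to 48 (hypoxia, WT), 20 to 38 (hypoxia, FIH-KO) and 0 to 1 (difference). With only the 4 FIH-KO libraries the hypoxia count was 21 in place of 32, where 9.83% in place of 16.8% of all tested genes were called. For the difference of response the count was 2 with DESeq2 (0.251% of all) and 3 without the filter (Plod2, Adamts1 and Fbln5, 0.556% of all). These fits hold fewer samples or other genes, and the causes were not tested further.

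Same-numbered libraries deviated together only weakly (r between -0.010 and 0.193 over 6 pairs of groups), so the numbers were not taken to pair samples. With the replicate block, Col4a1 and Col4a2 were called under hypoxia in both genotypes, as without it. The pathway counts with the block were 41 for genotype in normoxia (29.3% of all tested genes called) and 39 in hypoxia (29%). They were 41 for hypoxia in WT (33%), 35 in FIH-KO cells (17.8%) and 0 for the difference of response (0.0359%). The 2 libraries a group and the few Col4a5 reads in WT cells limit the precision. Lengths from the longest transcript moved levels (Col4a5 at 12.5 in place of 8.78 RPKM in FIH-KO normoxia) but no ratio within a chain. Comparisons between chains moved with these lengths. The Col4a5 share of the summed level in FIH-KO normoxia was then 4.57% and 3.02%, in place of 3.60% and 2.36%.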
